A study of Mus musculus with 3 samples.

Results

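A set of 10 genes of epithelial junctions, keratin filaments and epithelial identity was followed through methylated-DNA profiles of mouse colon organoids: Epcam, Cldn3, Cldn4, Cldn7, Krt8, Krt18, Krt19, Esrp1, Grhl2 and Ovol1. They were taken as a named list, with all 200-bp bins of the deposited profile that overlap each gene's mm10 span and 5 kb on either side. All 10 matched a protein-coding gene, of 20665 on chromosomes 1 to 19, and their regions held 1683 of 12313737 bins. No 2 of the regions overlapped.

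The organoids came from the proximal colon of male mice about 40 days old that were heterozygous for a Braf allele which Cre recombinase turns into Braf V600E, an oncogenic kinase that signals through the MAPK pathway. Per the labels there were 3 groups, each with 1 library. EV organoids had received the lentiviral backbone without Cre and grew in full medium; the labels give the culture medium as holding Wnt3a, R-spondin, Noggin and EGF. Braf full medium organoids had received Cre and grew in the same medium, and Braf Base medium organoids had received Cre and were able to grow once those niche factors were left out. Culture lasted 5 months in every group, followed by 3 weeks in the named medium. The sources used here do not say how many mice or lines the libraries stand for. Since each group is 1 library, differences are described without any p-value. A lower signal in fewer cells and a lower signal in each cell cannot be told apart.

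Epithelial cells hold together through claudins, which seal tight junctions, and through adhesion proteins such as Epcam. Inside the cell, Krt8 pairs with Krt18 or Krt19 to form the keratin filaments of simple epithelia such as the colon. Grhl2 and Ovol1 are transcription factors and Esrp1 is a splicing regulator, and all 3 help to keep cells epithelial. In genes that a tissue expresses, start sites usually lack DNA methylation while the gene body often carries it. MBD-seq, the assay used, pulls down DNA with methylated CpG sites, so a start with few CpG sites gives little signal in either state.

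Start sites with a strand were taken from a RefSeq promoter table (GRCm38.p6), which held 6 of the 10 genes. Krt19, Esrp1, Grhl2 and Ovol1 were followed at both ends instead, called low and high after their coordinates. The partners Krt8 and Krt18 are shown because their starts hold the fewest and the most CpG sites of the 6 genes, and Epcam and Cldn3 because they stand for the adhesion genes. Each stretch runs from 250 bases before to 50 after the start, 5′ to 3′ on the gene's strand, with CpG sites in capitals. The stretches are chr15:102004293-102004592 (minus strand) for Krt8, chr15:102027966-102028265 (plus) for Krt18, chr17:87635729-87636028 (plus) for Epcam and chr5:134985964-134986263 (plus) for Cldn3.
Krt8: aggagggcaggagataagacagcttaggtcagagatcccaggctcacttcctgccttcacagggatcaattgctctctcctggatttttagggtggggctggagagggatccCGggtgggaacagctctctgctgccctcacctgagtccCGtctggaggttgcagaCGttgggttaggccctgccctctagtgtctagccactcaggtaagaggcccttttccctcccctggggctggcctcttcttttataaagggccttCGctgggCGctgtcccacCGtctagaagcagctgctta
Krt18: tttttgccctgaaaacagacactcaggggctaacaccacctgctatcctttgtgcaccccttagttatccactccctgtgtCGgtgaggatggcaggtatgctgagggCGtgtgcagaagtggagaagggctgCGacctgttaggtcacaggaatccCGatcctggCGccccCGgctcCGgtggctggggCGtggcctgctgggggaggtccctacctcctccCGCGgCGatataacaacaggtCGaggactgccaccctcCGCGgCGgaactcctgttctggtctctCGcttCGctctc
Epcam: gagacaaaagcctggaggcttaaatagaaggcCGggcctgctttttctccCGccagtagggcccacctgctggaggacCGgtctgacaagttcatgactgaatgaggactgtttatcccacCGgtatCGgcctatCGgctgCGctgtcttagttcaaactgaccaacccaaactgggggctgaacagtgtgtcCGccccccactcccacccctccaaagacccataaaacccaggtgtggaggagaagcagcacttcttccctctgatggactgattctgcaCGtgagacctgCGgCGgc
Cldn3: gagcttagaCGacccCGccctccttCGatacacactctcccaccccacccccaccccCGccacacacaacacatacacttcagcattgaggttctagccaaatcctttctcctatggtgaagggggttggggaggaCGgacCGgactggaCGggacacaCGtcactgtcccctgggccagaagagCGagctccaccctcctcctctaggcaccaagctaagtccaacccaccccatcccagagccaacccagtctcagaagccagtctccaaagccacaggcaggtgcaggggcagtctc

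The Krt8 stretch held 6 CpG sites and the Krt18 stretch 17, while Epcam had 11 and Cldn3 and Cldn4 had 9 each. Cldn7 had 7 at its first start and 17 at a second start downstream. Of 20085 promoters of the same length, 31.4% had fewer CpG sites than Krt8 and 56.1% had fewer than Krt18, so none of these starts was at an extreme. Reads were counted within 1 kb on either side of the start, a wider window than the stretch in which CpG sites were counted. Promoters with 0 to 3 CpG sites lacked any read in that window in EV in 58.5% of cases and those with 8 to 14 in 37.6%. With 25 or more sites the share was 46.8%. In the classes of the member starts, 4 to 24 sites, at least 11.4% of starts reached the minimum for a call in EV, against 4.51% with 0 to 3 sites.

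Values are normalised coverage, the mean per 200-bp bin on the authors' scale. The libraries held an estimated 5041726 reads in EV, 8648828 in Braf full and 5985362 in Base medium. The Braf full medium library stood apart by its background: 43.3% of its bins had no read, against 87.2% in EV and 83.0% in Braf Base medium. In 1-kb tiles that stayed under the minimum for a call in every library, its mean coverage was 0.0400, against 0.00567 and 0.00603. Relative to EV, equal totals shift log2 coverage by -0.70 in Braf full medium and by 0.19 in Braf Base medium. Log2 ratios carry a pseudocount of 0.0597, the mean coverage of all bins, and understate changes at low coverage. A window was called gained or lost at a log2 ratio of at least 1 in either direction if the higher library reached 0.119, which is 2 times that mean. Intervals are exact 95% intervals on estimated reads and cover counting error only.

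Start sites of the junction genes carried little or no methylated DNA in any library. Cldn4 and Cldn7 had no read within 1 kb of their start in EV, which at this depth allows a coverage of up to 0.0340. The start of Cldn4, a claudin that lowers sodium leak, had 0.0401 in Braf full and 0.0101 in Base medium. That of Cldn7, which sits along the lateral membrane, had 0.0312 and 0.0236, and its second start 0, 0.0356 and 0.0202 in EV, Braf full and Braf Base medium. Epcam had 0.0137 in EV, 0.0178 in Braf full and 0.00674 in Base medium, so its start stayed low in all 3 libraries and was the lowest of the starts in Braf full medium. Cldn3 had 0.0137 in EV, 0.0713 in Braf full and no read in Base medium. Over all 16457 genes with a listed start the medians were 0.00456, 0.0579 and 0.00674 in the same order, and 47.9% had no read in EV.

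The keratin starts differed from each other. Krt18 had no read in EV, 0.0668 in Braf full and 0.00674 in Base medium. Krt8, its filament partner, had the highest start of the 6 genes in EV: 0.119, from 26 read overlaps, against 0.0980 in Braf full medium and 0.0168, from 5 overlaps, in Braf Base medium. The Base medium value was lower than EV beyond counting error (ratio 0.142, 95% interval 0.0157 to 0.691; log2 ratio -1.22), but the EV value lay just under the minimum of 0.119 for a call. With 500 bp on either side of the start, Krt8 was called lost in Braf Base medium against either other library. Of the 26 overlaps in EV, all but 2 lay in 3 adjacent bins of 0.402 each that reach from inside the gene to its start. Krt19 had 0.0183 in EV, 0.0445 in Braf full and 0.00337 in Base medium at its low end, and 0, 0.0356 and 0 at its high end.

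Ends of the identity regulators were also low in the libraries with little background. Grhl2 had 0.0137 in EV, 0.102 in Braf full and no read in Base medium at its low end, and 0, 0.0624 and 0.00674 at its high end. Esrp1 had 0, 0.0445 and 0.0101 at its low end and 0, 0.0935 and 0 at its high end in the same order. Ovol1 had 0.00913, 0.0624 and 0.0337 at its low end and 0.0456, 0.0490 and 0.0101 at its high end. In Braf full medium the high end of Esrp1 and the low end of Grhl2 thus stood above their Base medium values, which were 0 in both genes. The background of the surrounding 5 Mb in Braf full medium was 0.0400 at Esrp1 and 0.0423 at Grhl2; its part in these differences was not tested. With 500 bp on either side, Grhl2 was called gained in Braf full medium over EV and lost in Braf Base medium.

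**Figure D1:**
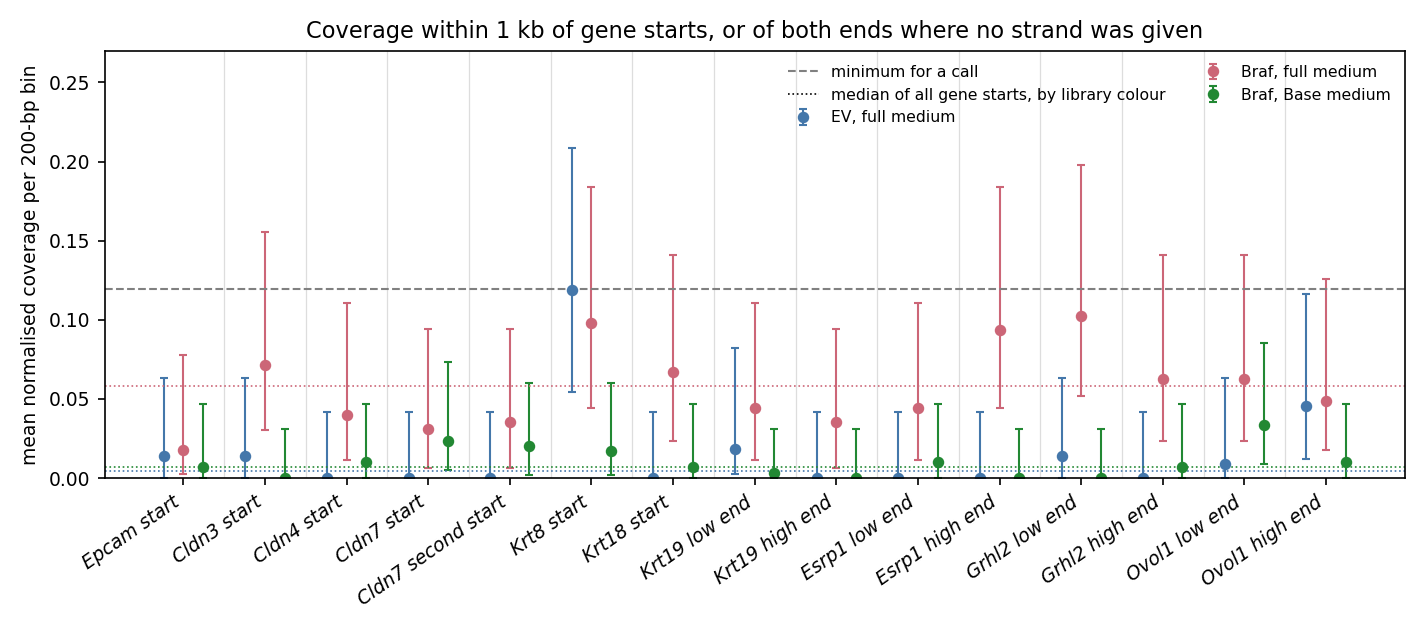
Mean normalised coverage (vertical axis, per 200-bp bin) within 1 kb of each start, or of both ends for the 4 genes without a listed strand, in the 3 libraries; points are single libraries and bars exact Poisson 95% intervals on estimated reads. Dotted lines give the median of all gene starts in each library and the dashed line the minimum of 0.119 for a call. EV and Braf Base medium points lie at 0.0456 or lower except at the Krt8 start in EV, and Braf full medium points lie between 0.0178 and 0.102, on both sides of that library's median of 0.0579.

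None of the 6 starts and none of the 8 ends of the other 4 genes was called in any comparison. For Braf full medium over EV the shares among all gene starts were 6.85% gained and 0.753% lost. They were 2.03% and 3.59% for Base over full medium and 5.57% and 1.43% for Base medium over EV. A count of 0 of 6 does not stand apart from such shares. The median log2 ratio over the 6 starts was 0.67 for Braf full medium over EV, against 0.74 over all starts, -0.72 against -0.67 for Base over full medium, and 0.00531 against 0 for Base medium over EV.

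Counting both ends of all 10 genes, 1 of 20 was called, the end of Cldn3 that lies opposite its start. Cldn3 is 1263 bp long and Cldn4 1812 bp, so in each the windows at the start and at the opposite end share bins. At its called end Cldn3 had 0.0228 in EV, 0.125 in Braf full and 0.00674 in Base medium. The ratio of Braf full medium to EV was 5.47 (95% interval 1.27 to 52.4; log2 ratio 1.16), and that of Base to full medium was 0.0540 (0.00151 to 0.437; log2 ratio -1.47). The higher value lay close to the minimum for a call, and the gain was lost with background subtracted (log2 ratio 0.91) and with equal totals (0.72). The loss in Base over full medium also ended there, with log2 ratios of -1.26 and -1.02, since the higher value then lay under the minimum. Among all 41330 gene ends, 4.64% gained and 0.602% lost in the first comparison, 1.03% and 2.94% in the second, and 3.23% and 1.4% for Base medium over EV.

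Over the gene span with its flanks, coverage in EV ran from 0.144 in Ovol1, 0.110 in Krt18, 0.0637 in Krt8 and 0.0575 in Grhl2, through 0.0216 in Esrp1, 0.0209 in Epcam and 0.0123 in Cldn3, to 0.00524 in Cldn7, 0.00330 in Krt19 and 0 in Cldn4. Counting intervals of neighbours in this order overlapped except between Krt18 and Krt8 (lower bound 0.0847 against upper bound 0.0844) and between Grhl2 and Esrp1 (0.0515 against 0.0279). Cldn4, with 0 read overlaps in 60 bins, could carry up to 0.00624 at this depth.

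In Braf Base medium Ovol1 had 0.158, Krt18 0.107, Grhl2 0.0705, Krt8 0.0333, Epcam 0.0233 and Esrp1 0.0214, and the 3 claudins and Krt19 had 0.00617 to 0.0149. Relative to EV on the deposited scale, the ratio was 0.523 (95% interval 0.322 to 0.843) in Krt8, lower beyond counting error. It was 1.23 (1.06 to 1.41) in Grhl2, higher beyond counting error. An equal median of covered tiles would shift log2 coverage in Braf Base medium by 0.31 relative to EV, which these intervals do not include. In the other 7 genes with reads in EV the interval included 1. The Krt18 span value came mostly from its upstream flank, with 0.253 in EV, 0.219 in Braf full and 0.275 in Base medium. The Krt18 gene itself had 0.0326, 0.0735 and 0.00556 in the same order, a ratio of 0.170 (0.00312 to 1.32) for Base medium over EV. Within the Krt8 gene itself, without flanks, coverage was 0.144 in EV, 0.136 in Braf full and 0.0665 in Base medium, a ratio of 0.461 (0.275 to 0.751) for Base medium over EV. The background of the surrounding 5 Mb was 0.0499 in Braf full medium and 0.00895 in EV. With each library's background over the genome subtracted, the log2 ratio over the Krt8 gene was -0.35 for Braf full medium over EV. For Base medium over EV it was -0.72. With the 5-Mb background ratio, taken relative to the genome, divided out instead, these log2 ratios were 0.31 and -0.71. Braf full medium thus lay between the others as deposited and after subtraction, but above EV with the local ratio divided out.

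In Braf full medium the genes with little coverage elsewhere were raised: Cldn3 had 0.0774, Krt19 0.0490, Cldn4 0.0474 and Cldn7 0.0329. The background of the surrounding 5 Mb in that library was 0.0489 at Cldn3 and Cldn4, 0.0494 at Krt19 and 0.0488 at Cldn7, and 0.00789 to 0.00908 in EV. Krt19, Cldn4 and Cldn7 thus stood at or below their local background, and Cldn3 above it. Epcam had 0.0563, against 0.0437 around it, Esrp1 0.0573, Krt8 0.0853, Grhl2 0.0961, Ovol1 0.120 and Krt18 0.123. With each library's background over the genome subtracted, the log2 ratio to EV went from 0.52 to 0.02 in Epcam and from 0.51 to 0.00 in Cldn7. It went from 0.84 to 0.17 in Cldn4 and from 0.93 to 0.55 in Cldn3.

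**Figure D2:**
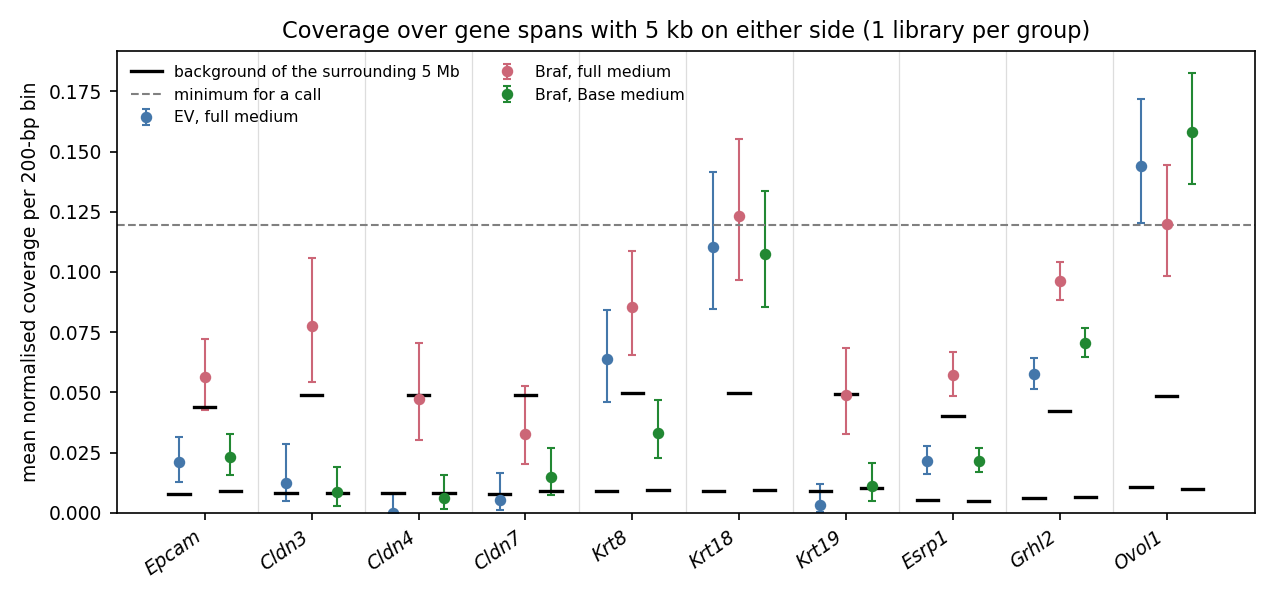
Mean normalised coverage (vertical axis, per 200-bp bin) over each gene span with 5 kb on either side in the 3 libraries; points are single libraries, bars exact Poisson 95% intervals on estimated reads, black ticks the background of the surrounding 5 Mb in the same library and the dashed line the minimum of 0.119 for a call. Ovol1 and Krt18 are highest in all 3 libraries, and Cldn4, Cldn7 and Krt19 lie at or under the Braf full medium background of 0.0488 to 0.0494.

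No region was called gained or lost in any of the comparisons. Cldn3 came closest, with a log2 ratio of -1.01 for Base over full medium, but its higher value of 0.0774 lay under the minimum. Of all protein-coding gene regions, 1.8% gained and 0.0387% lost in Braf full medium over EV, 0.126% and 0.745% in Base over full medium, and 1.12% and 0.208% in Base medium over EV. The median log2 ratios of the 10 regions were 0.52, -0.51 and 0.07 in that order, and those of all regions 0.49, -0.51 and -0.00164. The 3 comparisons share libraries and are not independent of each other.

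Some of the genes carried short blocks of high coverage. A block was a run of bins in which some library reached 10 times the mean (0.597), joined over gaps of 1 bin. The regions held 13 blocks of 200 to 800 bp, in 5 of the 10 genes: 7 in Grhl2, 3 in Ovol1 and 1 each in Krt8, Krt18 and Esrp1. Epcam, the 3 claudins and Krt19 had none. That made 3.86 blocks per 100 kb, against 3.00 over all protein-coding gene regions, where 64.4% of genes had a block. In EV 90.0% of the overlaps of Ovol1, 81.2% of those of Grhl2, 79.9% of those of Krt18 and 70.0% of those of Esrp1 fell in or within 2 bins of a block, but 38.1% of those of Krt8. In Braf full medium, the library with the high background, the shares were 52.3% in Ovol1, 49.2% in Grhl2, 48.9% in Krt18, 28.9% in Esrp1 and 14.8% in Krt8.

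Of the 13 blocks, 12 lay inside a gene span. Only Krt8 and Krt18, with 1 block each, had both a block and a listed start, so distance to a start could be read for no other block, and neither lay within 1 kb. Counting both ends of every gene, 1 block, that of Krt8, lay within 1 kb of an end. In all 3 libraries the threshold was reached by 9 blocks (69.2%), against 63.8% of all 33754 blocks.

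The tallest blocks were in Grhl2, which keeps claudin and cadherin genes active in epithelia. At chr15:37279201-37280000, 46779 bp from the low end, coverage was 3.59 in EV, 3.93 in Braf full and 5.06 in Base medium, a ratio of 1.41 (95% interval 1.12 to 1.78) for Base medium over EV. At chr15:37283201-37283800 it was 2.34, 2.07 and 3.03 (1.29, 0.929 to 1.84). Both were tall in every library, with the Base medium library highest. The block at chr15:37258401-37258800 had 0.878 in EV, 0.882 in Braf full and 1.46 in Base medium. Closer to the high end, chr15:37347601-37348000 had 1.23, 1.03 and 1.33, and chr15:37344401-37345000 had 0.719, 0.996 and 0.778. The remaining 2 blocks had 0.318 to 0.653. No Grhl2 block was called in any comparison.

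**Figure D3:**
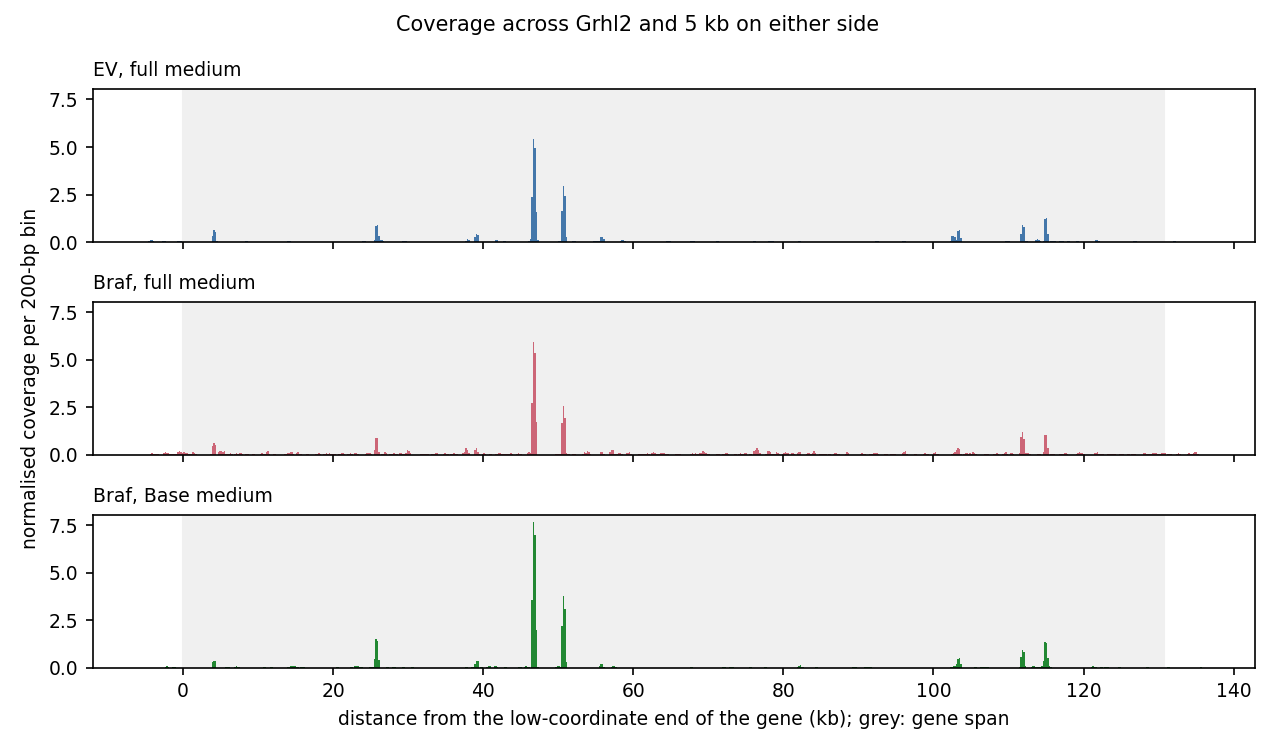
Normalised coverage per 200-bp bin (vertical axis) across Grhl2 and 5 kb on either side, by distance from the low-coordinate end of the gene in kb (horizontal axis), 1 panel per library with the gene span in grey. Of the 7 blocks, 5 reach the block threshold in all 3 panels, the tallest 46779 bp from the low end, and the ends of the gene are empty or low.

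Esrp1, which sets the epithelial splice forms of many transcripts, had a single block, at chr4:11342001-11342800, of 1.18 in EV, 1.29 in Braf full and 1.06 in Base medium. The interval of each ratio included 1. Krt18 had its block outside the gene, upstream at -2516 bp from its start, at chr15:102025401-102026000, where no listed gene lies. Coverage there was 1.76 in EV, 1.31 in Braf full and 2.10 in Base medium, so a well-covered block stood next to a start that had no read in EV. Krt8 had a block near the end opposite its start, at chr15:101996801-101997200, with 0.853 in EV, 0.416 in Braf full and 0.333 in Base medium. This block was called lost in Braf Base medium over EV (ratio 0.391, 95% interval 0.126 to 0.975; log2 ratio -1.22). It reached the block threshold in EV alone, so its choice favours a high EV value, which the interval does not cover. It rested on 34 and 18 overlaps, and the call was lost with libraries scaled to an equal median of covered tiles (log2 ratio -0.95).

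Ovol1, which represses mesenchymal genes in epithelia, held the block with the largest difference between libraries. At chr19:5553201-5553800, inside the gene 4363 bp from its low end, coverage was 1.86 in EV, 0.196 in Braf full and 1.82 in Base medium, from 111, 12 and 147 overlaps. The EV and Braf Base medium libraries were alike there, and the Braf full medium library was low. The block threshold was reached in EV and Braf Base medium alone, so the choice of the block favours high values in them. The ratio of Braf full medium to EV was 0.106 (95% interval 0.0327 to 0.265; log2 ratio -2.91), that of Base to full medium 9.26 (3.71 to 29.2; log2 ratio 2.87), and that of Base medium to EV 0.977 (0.644 to 1.46). The background of the surrounding 5 Mb was higher in Braf full medium than in EV, at 0.0485 against 0.0108. Both values lay above those over the genome, 0.0400 and 0.00567. The local ratio of Braf full medium to EV was nevertheless below that of the genome, by a log2 ratio of -0.70. With the local ratio of each comparison divided out, the log2 ratios of this block were -2.21 for Braf full medium over EV and 2.39 for Base over full medium.

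The other Ovol1 blocks differed less between the libraries and were not called. At chr19:5550801-5551400 coverage was 1.17 in EV, 0.947 in Braf full and 0.679 in Base medium. At chr19:5554601-5555400 it was 1.08, 0.612 and 1.28, with ratios of 0.568 (95% interval 0.315 to 1.01) for Braf full medium over EV and 2.09 (1.23 to 3.60) for Base over full medium. Over the whole Ovol1 gene coverage was 0.260, 0.156 and 0.287, a ratio of 0.600 (0.448 to 0.811) for Braf full medium over EV. With the local background ratio divided out, the log2 ratio of Braf full medium to EV went from -0.29 to 0.41 in the 1963-bp block. It went from -0.76 to -0.06 in the 5863-bp block and from -0.57 to 0.13 over the whole gene. With each library's background over the genome subtracted instead, these values moved away from 0, to -0.34, -0.84 and -0.84. Only the 4363-bp block stayed clearly below 0 in either setting, at -2.21 and -3.15.

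**Figure D4:**
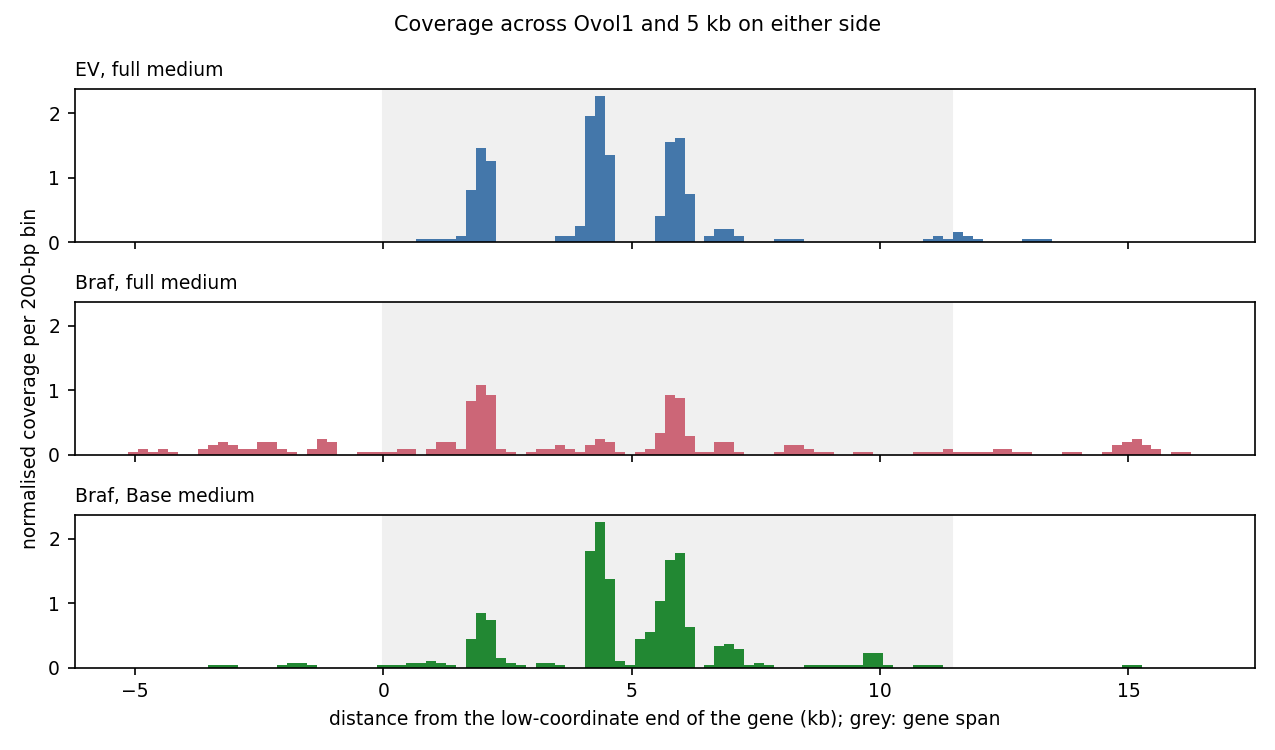
Normalised coverage per 200-bp bin (vertical axis) across Ovol1 and 5 kb on either side, by distance from the low-coordinate end of the gene in kb (horizontal axis), 1 panel per library with the gene span in grey. Of the 3 blocks inside the gene, the middle one has a mean coverage of 1.86 in EV and 1.82 in Braf Base medium but 0.196 in Braf full medium.

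In all, 1 of 13 member blocks was lost and 0 gained in Braf full medium over EV, where 10.7% of all blocks were lost and 7.86% gained. In Base over full medium 1 gained and 0 lost, against 4.97% and 9.58% of all blocks, and in Base medium over EV 1 was lost and 0 gained, against 17.2% and 8.43%. Both lost in Braf full medium over EV and gained in Base over full medium were 1.51% of all blocks. A count of 1 of 13 cannot be set apart from these shares. With equal totals, 5 member blocks were lost in Braf full medium over EV, as were 34.0% of all blocks, and 8 gained in Base over full medium, as did 36.3% of all blocks.

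**Figure D5:**
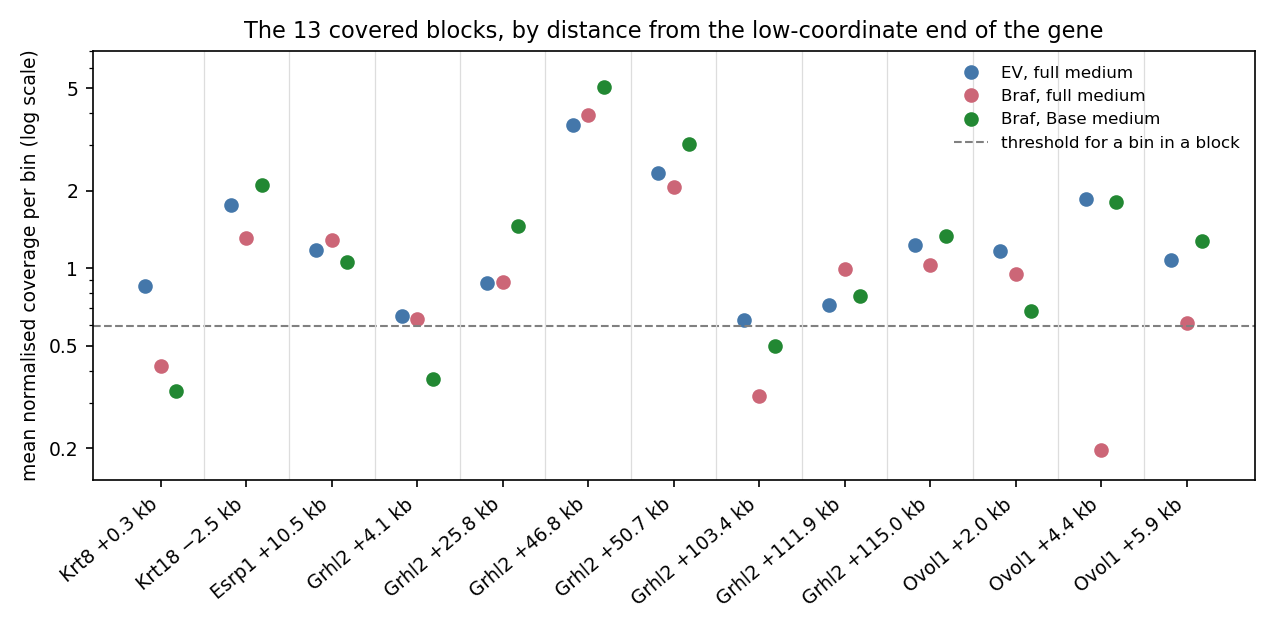
Mean normalised coverage (vertical axis, log scale) of the 13 covered blocks in the 3 libraries, each point a single library, by gene and distance in kb from the low-coordinate end of the gene; the dashed line is the threshold of 0.597 for a bin. The Ovol1 block 4363 bp from the low end has the widest gap of the 13, 0.196 in Braf full medium against 1.86 in EV.

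The wider junction and keratin programme was mostly not called either. Among all gene starts and ends, 5.57% and 3.23% gained and 1.43% and 1.4% lost in Base medium over EV, and counts of 1 in a list of 10 to 18 genes are near such shares. Of 14 tight junction genes, 1 gained and 0 lost at the start or an end in Braf Base medium over EV, and none was called in the other comparisons. The 1 gained was Marveld2, which encodes the tricellular junction protein tricellulin, at its start, with 0.0958 in EV, 0.241 in Braf full and 0.303 in Base medium (log2 ratio 1.22). Of 13 adherens junction and desmosome genes, Pkp3, a desmosomal plaque protein, alone was called, at its low end, with 0.251, 0.147 and 0.0909 (log2 ratio -1.04 for Base medium over EV). The Pkp3 call was lost with equal totals, and the Marveld2 call held there.

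Among 10 other keratins, Krt23 and Krt5 were called at their starts. Of all gene starts, 2.03% gained and 3.59% lost in Base over full medium, and 5.57% and 1.43% in Base medium over EV. Krt23, a type I keratin, had 0.109 in EV, 0.107 in Braf full and 0.721 in Base medium, a log2 ratio of 2.23 over Braf full medium and 2.21 over EV. Only the Base medium library was high there. Krt5, a keratin of basal cells in stratified epithelia, had 0.278, 0.347 and 0.104, a log2 ratio of -1.31 over Braf full medium and -1.04 over EV. With equal totals the keratin list kept its 1 gain in each of these comparisons and had no loss.

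Among the further identity regulators reported here none gained at its start or an end, and 1 was lost, in Braf Base medium over EV. Klf5, a factor of proliferating crypt cells, had 1.39, 1.16 and 0.640 at its high end (log2 ratio -1.05 for Base medium over EV), a call that was lost with equal totals. None of the genes reported from these lists was called over its whole region. Methylated DNA measures no expression, so whether these genes were active in the organoids was not measured here.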

How the data were processed

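Methylated DNA was profiled by MBD-seq in 3 libraries of mouse organoids. DNA (100 to 200 ng, sheared to 200 to 400 bp) was enriched on MBD beads and sequenced as single 50-bp reads, per the labels' protocols. The submitters' processing notes name Bowtie2 and mm10; no source used here describes the counting. Values in the deposited table are log2, computed by the authors for each 200-bp bin. Raising 2 to each value gave a shared floor of 0.0153 plus whole steps (0.0502 in EV, 0.0490 in Braf full medium, 0.0370 in Braf Base medium; tolerance 0.001 of a step), taken as read overlaps. Overlaps times the step were used as coverage. Total overlaps were 12530155, 20914446 and 14850571; reads were estimated from lone runs of 2 or 3 bins (2.49, 2.42 and 2.48 bins per read).

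Gene spans and promoters came from RefSeq (GRCm38.p6, the assembly behind mm10), where 16457 of 20665 protein-coding genes had a start. Ratios have exact binomial (Clopper-Pearson) 95% intervals; a coverage of 0 is limited by 3 reads. Python 3.11.15, numpy 2.4.6, scipy 1.17.1 and pandas 2.3.3 were used. Alternatives covered the scaling, background, pseudocount, minimum, local background and window width. The members and gene lists were chosen with earlier results of these data known. Named were the 10 members, up to 5 blocks per gene and the block with the largest difference, and up to 3 called genes per list and comparison. Local background is the mean of 1-kb tiles under the minimum in every library, in 100-kb windows over 5 Mb. Of the identity regulator list, 1 gene is not reported here.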

Additional observations from a re-analysis of the deposited data

How the results depend on the processing

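No paired analysis was possible because each group held 1 library, and for the same reason no replicate could be left out. The counts of member regions called, 0 in every comparison, were the same under all other scalings, pseudocounts, minimums and widths tried, including 2 kb of flank and the gene span alone. At the starts, 500 bp on either side gave 1 member gained in Braf full medium over EV (Grhl2), 2 lost in Base over full medium (Krt8 and Grhl2) and 1 lost in Base medium over EV (Krt8), and the other alternatives gave 0. A block threshold of 5 times the mean gave 21 blocks in place of 13. The alternatives that follow were chosen after seeing the data. For gene ends, the 1 gained in Braf full medium over EV and the 1 lost in Base over full medium became 0 and 0 with equal totals, background subtracted, a pseudocount 4 times larger, a minimum 5 times the mean or 2 kb on either side, and 2 and 3 with 500 bp; the cause was not tested, and the wider and narrower windows hold other bins by construction. In Base medium over EV, where no end was called, 1 was lost with a pseudocount 4 times smaller and 2 with 500 bp. Of the blocks, 5 were lost in Braf full medium over EV with equal totals, 3 with background subtracted and 2 with a pseudocount 4 times smaller, against 1. In Base over full medium 8 gained with equal totals and 2 each with an equal median, background subtracted or the smaller pseudocount, against 1. The 1 lost in Base medium over EV became 0 with an equal median or a pseudocount 4 times larger. The Ovol1 block kept its calls under each of these, with log2 ratios of -2.21 to -3.41 for Braf full medium over EV and 2.24 to 3.57 for Base over full medium. Depth limits the starts: most start windows in EV and Braf Base medium rest on fewer than 5 read overlaps.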

Other observations

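Marker genes of other cell types were also followed at their starts or ends. Of 10 markers of fibroblasts and smooth muscle, Vim had 0.0319 in EV, 0.294 in Braf full and 0.283 in Base medium at its start, Pdgfra 0.0228, 0.156 and 0.293, and Zeb2 0, 0.134 and 0.246, all called gained over EV in both Braf libraries. Col1a1 was lost at its low end in both, with 0.397, 0.0713 and 0.00674. Tagln had 0.251, 0.610 and 0.226 at its high end, gained in Braf full medium over EV and lost in Base over full medium. In all, 4 of the 10 gained and 1 was lost in Braf full medium over EV, and 3 gained and 1 was lost in Base medium over EV. Of all gene starts, 6.85% gained and 0.753% lost in Braf full medium over EV, and 5.57% and 1.43% in Base medium over EV. Of all gene ends, the shares were 4.64% and 0.602%, and 3.23% and 1.4%, in the same order. Of the 10 genes, 4 had no listed start and were tried at both ends. Of 7 endothelial and neural markers, Kdr, the main VEGF receptor of endothelium, had 0.0137, 0.205 and 0.569 at its start, and the neural crest factor Sox10 had 0.0228, 0.272 and 0.573 at its high end. Elavl3, which encodes a neuronal RNA-binding protein, had 0.246, 0.624 and 0.616 at its start. These 3 gained over EV in both Braf libraries, and Kdr also in Base over full medium. Elavl4 had 0.246, 0.120 and 0.677, gained in Base medium over each other library. In all, 3 of the 7 gained in Braf full medium over EV, 2 in Base over full medium and 4 in Base medium over EV. In the same order, 6.85%, 2.03% and 5.57% of all gene starts gained, and 4.64%, 1.03% and 3.23% of all gene ends. Of the 7 genes, 3 had no listed start and were tried at both ends. Of 7 immune markers none was called, and of the 10 epithelial markers none was called at its start, or at either end where no start was listed. The epithelial list includes the members Epcam, Krt8, Krt18, Cldn3 and Cldn7, so it is not a separate set from them. Krt8 had a log2 ratio of -1.22 for Base medium over EV at its start, with an EV value just under the minimum. The called end of Cldn3 was left out here, since Cldn3 has a listed start. The difference between these lists was not tested.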
